A study of Homo sapiens with 33 samples.

Results

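The genes described here are 10 markers of human pluripotent stem cells: POU5F1, NANOG, SOX2, LIN28A, LIN28B, DPPA4, ZFP42, L1TD1, SALL4 and DNMT3B. They were chosen by name, with earlier results of these data known, and all 10 were found among the 58735 genes of the deposited count table. The question was how the stem cell programme was lost while H9 human embryonic stem cells were steered towards gonadal somatic cells, how much of it was left, and whether activation of FOXL2 changed its course. H9 is an established embryonic stem cell line. The cells were H9-FOXL2-DDdCas9VP192, a single clone in which doxycycline (DOX) switches on a destabilised dCas9 activator, trimethoprim (TMP) stabilises it, and guide RNAs direct it to the FOXL2 promoter. Every group carried this construct. Bulk RNA-seq libraries were made at day 4, before DOX or TMP was given, and every 2 days from day 6 to day 14 from cells without the compounds (CTRL, -DOX -TMP) and from cells given both from day 4 on (IND, +DOX +TMP). There were 33 libraries, 3 wells for each of 11 groups. The wells are technical replicates of 1 biological replicate, so a p-value covers the spread between wells only. IND differed from CTRL by the presence of DOX and TMP as well as by FOXL2 activation, and these cannot be told apart. Undifferentiated cells were not analysed here, so day 4 is the earliest level. By then the cells had received activin A, CHIR-99021, BMP7 and dorsomorphin to pass towards intermediate mesoderm.

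Libraries held between 23940837 and 51912815 counts, with a median of 41420455. Levels are given in CPM, the counts scaled to a common effective library size. A gene was taken to be at the floor in a group when each library had 3 counts or fewer, a limit between 0.0564 and 0.13 CPM that covers counting error only. The targeted gene, FOXL2, ranged from 147 to 577 CPM over the 15 IND libraries and reached 0.388 CPM at most in the 18 others, as the labels say. Differences are log2 fold changes (log2FC) with their standard error (SE). Adjusted p-values come from the quasi-likelihood test of edgeR, corrected by Benjamini-Hochberg over all genes tested, and a gene was called at an adjusted p under 0.05. The library day 10 IND replicate 2 was the shallowest, with 23940837 counts, and stood apart from the other day 10 IND libraries. The values of members that turn on it are given with and without it. Over all genes, leaving it out took those called at day 10 between IND and CTRL from 234 lower and 170 higher to 1964 and 1804, and those between day 10 IND and day 4 from 1810 and 2191 to 3321 and 3574. Between replicates of a group, the chi-squared per gene was between 7.22 and 224, so no pair of replicates differed by as little as counting error.

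POU5F1 (also OCT4), SOX2 and NANOG are transcription factors at the centre of the pluripotency network. POU5F1 and SOX2 bind DNA side by side at a composite motif, and NANOG is one of the genes they control. LIN28A and LIN28B are RNA-binding proteins that block maturation of the let-7 microRNAs, which in turn repress LIN28 messenger RNA. SALL4 and ZFP42 (also REX1) are zinc finger proteins, DPPA4 is a chromatin-associated protein, L1TD1 is an RNA-binding protein derived from a LINE-1 element, and DNMT3B is a de novo DNA methyltransferase. Several of them are not particular to stem cells: SOX2 is also a factor of neural progenitors, while LIN28B and SALL4 are active in other embryonic tissues.

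The sequences that link these genes are shown for orientation. RefSeq promoter windows were given for 7 of the 10 genes (NANOG, SOX2, LIN28B, DPPA4, ZFP42, L1TD1 and DNMT3B). They were searched on both strands, over the 250 bases before the annotated start, for the POU motif ATGCAAA and for the SOX motif CATTGT. The POU motif was found in 3.94% and the SOX motif in 9.29% of the windows of all 35116 promoters. The composite, in which the SOX motif, any 1 base and the POU motif follow each other without overlap, was found in 2 of them (0.0057%). One of these 2 was NANOG, whose window (GRCh38.p14, chr12:7789152-7789401, plus strand) holds the composite on the minus strand, between 120 and 107 bases before the start. The SOX2 window (chr3:181711675-181711924, plus strand) holds the POU motif on the plus strand, between 100 and 94 bases before the start, and no SOX motif. Both are printed because NANOG was at the floor at day 4 while SOX2 stayed expressed to day 14, with the composite and the POU motif in capitals.
NANOG: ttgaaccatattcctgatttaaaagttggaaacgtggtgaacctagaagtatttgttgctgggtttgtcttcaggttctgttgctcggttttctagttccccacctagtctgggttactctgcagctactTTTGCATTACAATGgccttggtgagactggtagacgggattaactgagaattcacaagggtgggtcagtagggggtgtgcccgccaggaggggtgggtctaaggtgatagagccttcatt
SOX2: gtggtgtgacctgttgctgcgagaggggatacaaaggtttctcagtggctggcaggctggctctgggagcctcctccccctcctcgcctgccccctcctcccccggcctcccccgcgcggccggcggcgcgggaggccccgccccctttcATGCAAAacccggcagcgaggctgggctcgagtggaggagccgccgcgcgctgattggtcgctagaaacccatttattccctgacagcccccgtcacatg
Of the other 5 genes, LIN28B held a SOX motif in 1 of its 2 windows, and no window of the 5 held the POU motif. The genes lie on GRCh38 at these places. SOX2 spans 181711924 to 181714436 and DPPA4 109326141 to 109337572 on chromosome 3, on the plus and minus strand. LIN28A spans 26410778 to 26429722 and L1TD1 62194831 to 62212328 on chromosome 1, both on the plus strand. LIN28B spans 104936616 to 105083332 on chromosome 6 and ZFP42 187995771 to 188005050 on chromosome 4, both on the plus strand. SALL4 (51782331 to 51802520, minus strand) and DNMT3B (32762385 to 32809356, plus strand) lie on chromosome 20. A match is a run of letters and not a measured binding site.

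The let-7 microRNAs recognise messenger RNAs through the seed, bases 2 to 8, which is in capitals in let-7a-5p (RefSeq). The complement of the seed, CTACCTC, was searched in the 3′ untranslated region of the GENCODE 29 transcript with the longest coding sequence. It was found once each in LIN28A, LIN28B and SALL4, not in the other 7 genes, and in 8.31% of 19378 protein-coding genes. The LIN28A and LIN28B matches, in capitals, lie at bases 905 to 911 and 44 to 50 of that region, each followed by an A. They are shown because both genes fell, while microRNAs themselves were not measured.
let-7a-5p: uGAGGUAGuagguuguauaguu
LIN28A: agcctattgaaCTACCTCa
LIN28B: ggttgcaaagtCTACCTCa

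At day 4, the 10 genes covered a wide range per kilobase of gene length. LIN28A was highest, with 463 ± 28.3 CPM per kilobase (SD, n = 3). SALL4 followed with 44.5 ± 0.865, and then LIN28B with 33.3 ± 2.84, DNMT3B with 30.2 ± 2.46, ZFP42 with 30 ± 2.70, POU5F1 with 24.8 ± 1.17 and DPPA4 with 24.8 ± 5.08 CPM per kilobase. LIN28B, DNMT3B and ZFP42 differed from one another by less than the sum of their SDs, as did POU5F1 and DPPA4. SOX2 had 18.5 ± 1.73 and L1TD1 5.08 ± 0.111 CPM per kilobase, and NANOG was at the floor. By day 14 in CTRL, LIN28A (24.6 ± 3.85) and SOX2 (23.6 ± 4.83) could not be ranked against each other. LIN28B had 14.1 ± 0.776, DPPA4 10.1 ± 1.70, SALL4 7.43 ± 1.71 and DNMT3B 6.65 ± 0.184 CPM per kilobase, while ZFP42 (1.57 ± 0.561) and L1TD1 (1.43 ± 0.267) differed by less than their SDs and POU5F1 was at 0.0368 ± 0.00905.

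**Figure D1:**
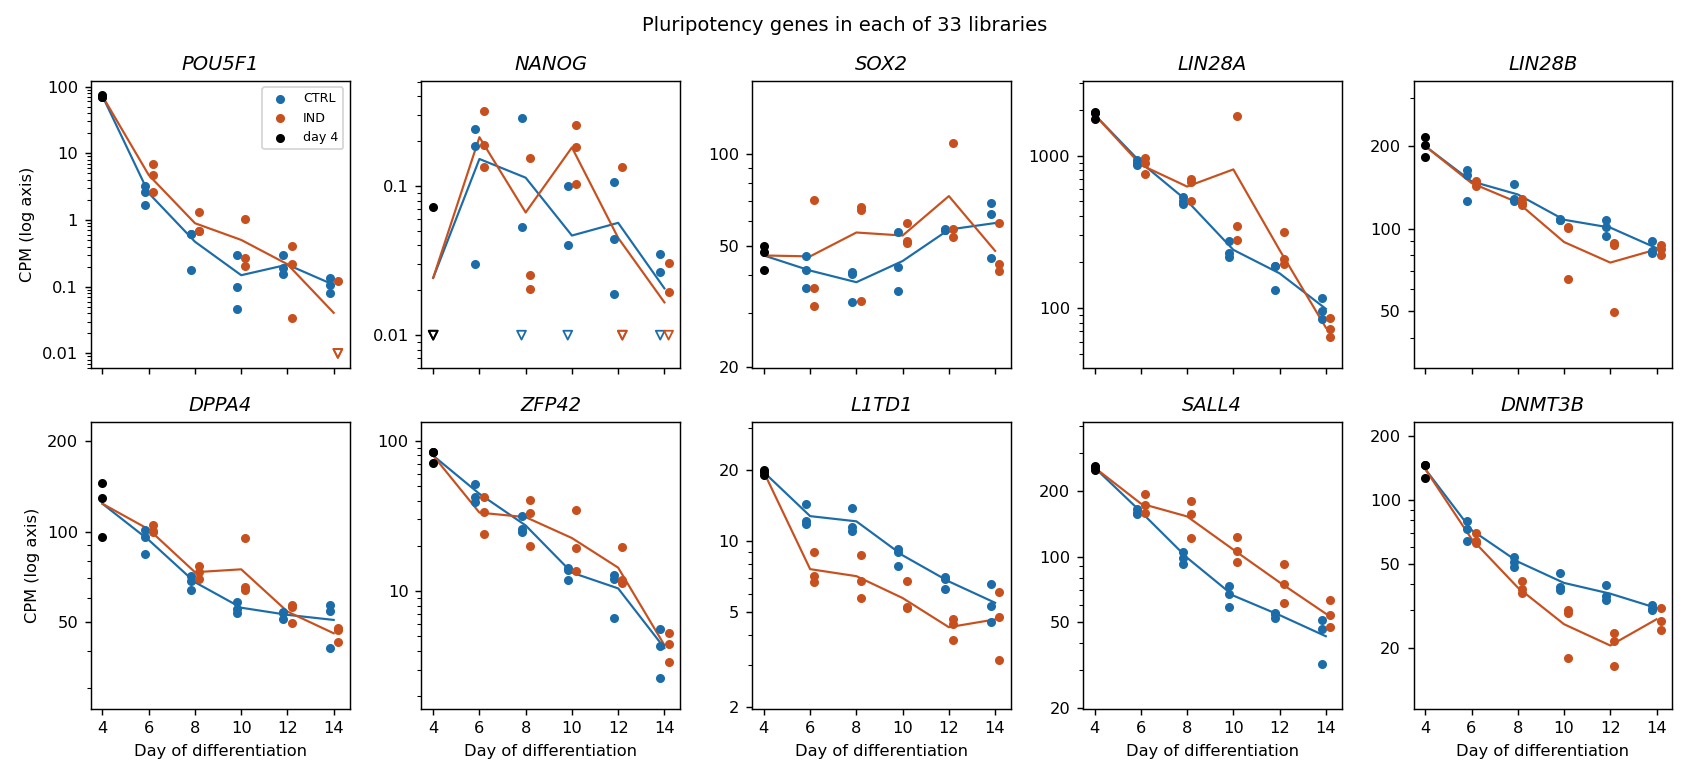
CPM on a log axis against the day of differentiation for each of the 10 genes. Black points are day 4 libraries, blue points CTRL, orange points IND, lines join the group means, and open triangles mark libraries with 0 counts, drawn near the lower edge. POU5F1 drops from between 69.4 and 75.7 CPM at day 4 to the lowest levels, NANOG is near the floor throughout, and SOX2 stays within 31.7 to 107.9 CPM.

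POU5F1, the factor that defines the stem cell state, fell furthest. Its 3 day 4 libraries had 75.7, 70.4 and 69.4 CPM (2083, 2031 and 2148 counts). At day 6 the CTRL libraries had 2.63, 3.27 and 1.68 CPM and the IND libraries 2.63, 4.66 and 6.89 CPM, with no overlap with day 4. This left 3.52% of the day 4 mean in CTRL and was a log2FC of -4.84 (SE 0.222, adjusted p = 2.64e-07 in edgeR). In IND it was -3.91 (SE 0.286, adjusted p = 3.66e-05 in edgeR). At day 8 the group means were 0.473 ± 0.256 CPM in CTRL and 0.895 ± 0.359 CPM in IND (SD, n = 3). From day 10 on, no library except 1 exceeded 0.402 CPM, and the exception was day 10 IND replicate 2, with 24 counts (1.04 CPM). The day 14 CTRL libraries had 5, 3 and 2 counts and the day 14 IND libraries 4, 0 and 0 counts, so any remaining transcript lay at or near the floor. The day 14 CTRL mean was 0.149% of day 4. POU5F1 shares its locus on chromosome 6 (31164337 to 31180731, minus strand) with TCF19 on the plus strand, which had between 289 and 1027 counts in every library. As the libraries were non-directional, a few counts of either gene may belong to the other. The pseudogene POU5F1P3 had at most 42 counts.

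NANOG (chromosome 12, 7787794 to 7799141, plus strand) was already at the floor at day 4, with 2, 0 and 0 counts in its 3 libraries. It reached at most 14 counts in any library, in day 6 IND replicate 3, and was removed by the filter on low counts in all 23 comparisons. Its pseudogenes NANOGP1 and NANOGP8 had at most 11 and 8 counts. The day 6 IND libraries had 5, 8 and 14 counts and the day 10 IND libraries 5, 6 and 9 counts, all above day 4 also in CPM. The other groups overlapped with day 4. A change of NANOG was therefore not tested in these comparisons, and its counts were low throughout.

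SOX2 was not called lower than day 4 at any day. The day 4 libraries had 47.8, 41.5 and 49.9 CPM. The CTRL libraries had 36.4, 41.5 and 46.3 CPM at day 6 and 68.6, 63.5 and 45.5 CPM at day 14, both overlapping with day 4. At day 8 its CTRL libraries (40.3, 40.8 and 32.6 CPM) lay below all of day 4, with a log2FC of -0.29 that missed the threshold (SE 0.122, adjusted p = 0.0946 in edgeR). The day 14 log2FC was 0.36 in CTRL (SE 0.159, adjusted p = 0.0911 in edgeR) and 0.04 in IND (SE 0.150, adjusted p = 0.831). Without day 14 CTRL replicate 3 the former was called higher (0.52, adjusted p = 0.0154). It passed the threshold in 1 of the 10 comparisons with day 4, at day 12 in CTRL. There all 3 libraries (56.8, 56.2 and 56.2 CPM) lay above day 4, with a log2FC of 0.28 (SE 0.0972, adjusted p = 0.0407 in edgeR). Of all genes, 24.4% were called higher in that comparison. The call was lost without any 1 library other than day 4 replicate 3, with adjusted p between 0.0709 without day 4 replicate 2 and 0.11 without day 12 CTRL replicate 1 in edgeR. The IND libraries were spread widely, with 31.7, 36.2 and 70.3 CPM at day 6, 67.1, 65.5 and 32.9 CPM at day 8 and 53.2, 107.9 and 56.6 CPM at day 12. SOX2 in IND was called higher than day 4 at day 8 without IND replicate 3 (0.52, adjusted p = 0.0165) and at day 12 without IND replicate 1 (0.82, adjusted p = 0.0346) or 3 (0.79, adjusted p = 0.0482). The long non-coding gene SOX2-OT, on the same strand around SOX2, had at most 201 counts.

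Markers of neural progenitors, which also express SOX2, were present at the same time. Their summed level over 11 genes was between 499 and 895 CPM at day 4 and between 524 and 831 CPM in CTRL of day 14. NES led this list, with a mean of 400 CPM over the 33 libraries, followed by LHX2 with 24.2 CPM. At day 14 in CTRL, 8 of the 11 were called higher and 1 lower than at day 4, with a median log2FC of 1.82 against -0.002 over all genes, of which 24.6% were called higher and 22.9% lower. The neural crest and glia list gave 7 of 7 higher (median 5.52) and the neuron list 8 of 8 higher (median 3.49). Among the abundant progenitor genes, LHX2 had a log2FC of 5.12 (adjusted p = 3.03e-05) and SOX3 of 1.57 (adjusted p = 0.00427), whereas NES was at -0.16 (adjusted p = 0.618) in edgeR. In bulk samples, fewer cells of a type and less RNA per cell cannot be told apart. The part of these cells in the level of SOX2 was not tested.

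LIN28A, which had the highest level per kilobase at day 4, was called lower than day 4 at each sampled day in CTRL. Its libraries had 1727, 1914 and 1931 CPM at day 4, 870, 932 and 899 CPM at day 6, and 95.0, 115 and 84.9 CPM at day 14. No 2 of these groups overlapped. The log2FC was -1.05 at day 6 (SE 0.119, adjusted p = 0.000129) and -4.23 at day 14 (SE 0.162, adjusted p = 3.99e-07) in edgeR. The day 6 call was lost in 1 fit over all 33 libraries, at the same -1.05 (adjusted p = 0.0584 in edgeR). The day 14 mean was 5.30% of day 4, and 3.99% in IND. LIN28B, its paralogue, fell from 201, 216 and 182 CPM at day 4 to 81.4, 90.2 and 83.1 CPM in CTRL of day 14. The log2FC was -1.23 (SE 0.111, adjusted p = 2.3e-05 in edgeR) and left 42.5% of day 4. At day 6 its log2FC in CTRL was -0.43 (adjusted p = 0.0400 in edgeR), which missed the threshold without any 1 library other than day 4 replicate 3, with adjusted p between 0.0642 without day 6 CTRL replicate 2 and 0.129 without day 4 replicate 1. In IND the day 6 call of LIN28B was lost without day 4 replicate 1 (0.0542), IND replicate 2 (0.0567) or IND replicate 3 (0.0549). The antisense gene LIN28B-AS1 had at most 35 counts.

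L1TD1 had the lowest day 4 level per kilobase of the members tested. It had 19.6, 20.0 and 19.1 CPM at day 4, 11.8, 12.1 and 14.3 CPM in CTRL of day 6 and 4.57, 6.60 and 5.32 CPM in CTRL of day 14. Its log2FC was -0.62 at day 6 (SE 0.153, adjusted p = 0.0141) and -1.83 at day 14 (SE 0.184, adjusted p = 4.53e-05) in edgeR. The day 6 call was lost without day 4 replicate 1 (0.0595) and without CTRL replicate 1 (0.0552) or 2 (0.0714).

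The nuclear factors fell to different extents. ZFP42 had 71.4, 83.7 and 84.0 CPM at day 4, 39.3, 51.7 and 42.1 CPM in CTRL of day 6 and 4.30, 2.63 and 5.60 CPM in CTRL of day 14. Its log2FC at day 14 was -4.25 (SE 0.239, adjusted p = 2.17e-06 in edgeR), and 5.24% of day 4 was left, a share like that of LIN28A. SALL4 went from 257, 262 and 252 CPM at day 4 to 46.2, 50.7 and 31.8 CPM in CTRL of day 14, a log2FC of -2.58 (SE 0.169, adjusted p = 4.6e-06 in edgeR) with 16.7% left. DPPA4 had 129.9, 146 and 95.9 CPM at day 4, a wide spread, and 54.4, 56.7 and 40.9 CPM in CTRL of day 14. Its log2FC at day 6 was -0.41 in CTRL (SE 0.159, adjusted p = 0.0919) and -0.27 in IND (SE 0.147, adjusted p = 0.2), neither past the threshold. Without day 4 replicate 3 they were -0.57 and -0.44 and both passed (adjusted p = 0.00155 and 0.0018 in edgeR). The CTRL value also passed without the filter on low counts (adjusted p = 0.0378) and in 1 fit over all libraries (adjusted p = 0.0327), at -0.40 in both. At day 14 in CTRL it was -1.28 (SE 0.181, adjusted p = 0.000357), with 40.9% left.

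DNMT3B, which adds new DNA methylation, fell from 147, 146 and 127 CPM at day 4 to 79.6, 72.7 and 64.1 CPM in CTRL of day 6 and to 31.8, 30.2 and 30.5 CPM in CTRL of day 14. The day 14 log2FC was -2.18 (SE 0.110, adjusted p = 1.29e-06 in edgeR), with 22.0% left. Of 6 other DNA methylation enzymes tested at day 6 in CTRL, none was called lower and 1, TET2, was higher, beside 10.6% and 11.0% of all genes. At day 14 in CTRL, 22.9% of all genes were called lower and 24.6% higher. TET2 and TET3 were called higher there, both named after their values were seen, and 3 of these enzymes were lower. These were DNMT1, the maintenance enzyme (-0.95, adjusted p = 8.82e-05), its partner UHRF1 (-1.37, adjusted p = 0.000299) and the demethylating enzyme TET1 (-0.74, adjusted p = 0.0107). The other de novo enzyme DNMT3A was at -0.13 (adjusted p = 0.343) in edgeR.

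In IND the same members ended low. At day 14 LIN28A had 72.5, 85.8 and 64.1 CPM, a log2FC of -4.65 against day 4 (SE 0.149, adjusted p = 6.21e-08 in edgeR). ZFP42 had 3.38, 5.28 and 4.43 CPM (log2FC -4.19, adjusted p = 1.96e-07) and L1TD1 6.12, 3.14 and 4.76 CPM (log2FC -2.07, adjusted p = 6.21e-05). SALL4 was left at 21.2%, DNMT3B at 19.5%, L1TD1 at 23.9%, DPPA4 at 36.9%, LIN28B at 42% and SOX2 at 104% of the day 4 mean. Of the 9 members tested at that day, 8, all but SOX2, were called lower than day 4, beside 24.8% of all genes.

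In the DIFF comparisons, CTRL against day 4, 7 of the 10 members were called lower at day 6 and 8 at each of days 8, 10, 12 and 14. The same test called 10.6%, 18.9%, 22.0%, 23.8% and 22.9% of all genes lower at these days. The 8 were all members except NANOG and SOX2, and at day 6 DPPA4 was missing as well. In the DIFF+IND comparisons, IND against day 4, the members called lower numbered 7, 8, 6, 8 and 8 from day 6 to day 14, beside 13.5%, 17.0%, 9.79%, 16.6% and 24.8% of all genes. These 10 comparisons share the day 4 libraries. The median log2FC of the members tested was -0.68 at day 6 and -2.18 at day 14 in CTRL, and -1.09 and -2.24 in IND, beside medians over all genes between -0.002 and 0.012 in these comparisons.

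**Figure D2:**
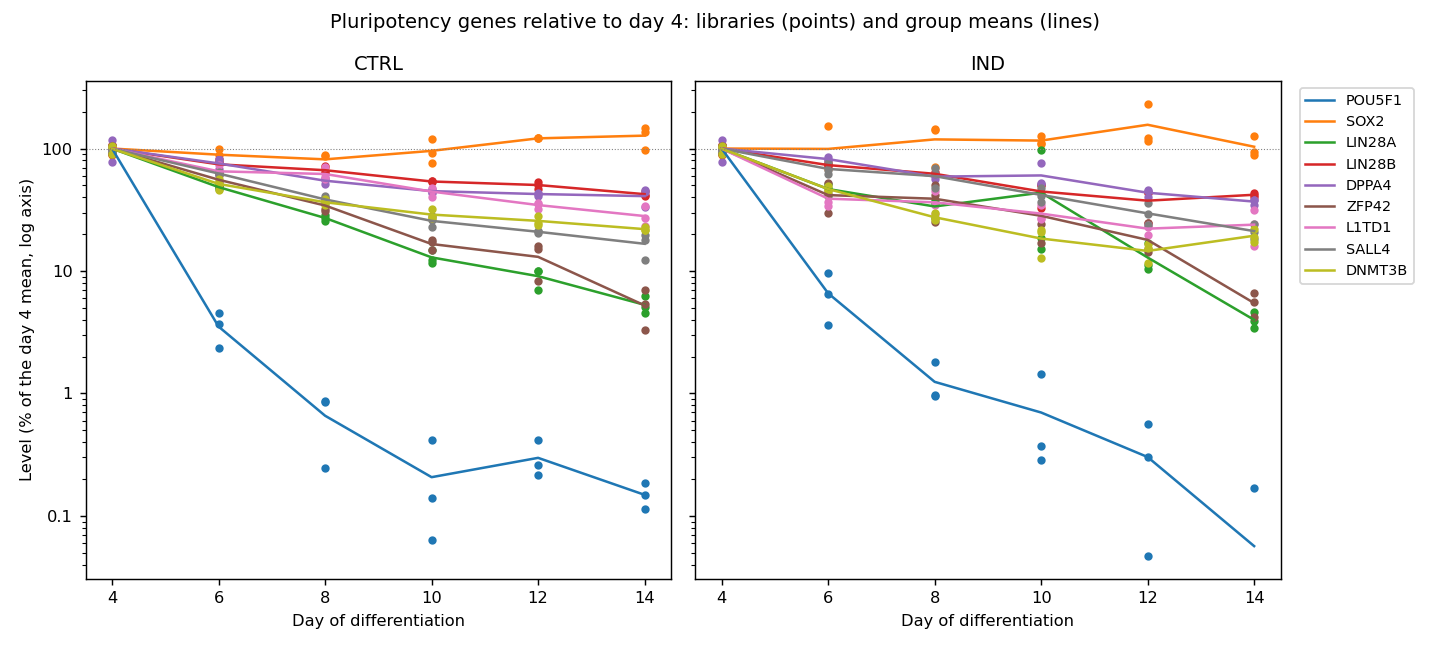
Level as a percent of the day 4 mean, on a log axis, for the 9 members other than NANOG in CTRL (left) and IND (right). Points are libraries, libraries with 0 counts are left out, and lines join group means. At day 14 in CTRL, POU5F1 was at 0.149%, ZFP42 and LIN28A at 5.24% and 5.30%, LIN28B and DPPA4 at 42.5% and 40.9%, and SOX2 at 128% of day 4.

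In CTRL, more members were called lower in the earlier steps between sampled days than in the later ones, and so were more of all genes. The number of calls does not measure the size of a fall. At day 8 against day 6, 6 members were called lower (7.91% of all genes), and 7 at day 10 against day 8 (3.38%). No member was called lower at day 12 against day 10 (0.482%) or at day 14 against day 12 (0.0102%) in edgeR. An unadjusted p under 0.05 was found for 3 and 4 members lower, beside 1381 of 19907 and 611 of 19637 genes. DESeq2 called 1 and 2 members lower, beside 312 and 60 genes. The 2 at day 14 were LIN28A (-0.77, adjusted p = 0.000189 in DESeq2) and ZFP42 (-1.32, adjusted p = 0.000941 in DESeq2). Without day 12 CTRL replicate 1, LIN28A was called lower in both steps (-0.37 and -0.92, adjusted p = 0.0294 and 0.00501) and ZFP42 in the second (-1.56, adjusted p = 0.0203). Without day 10 CTRL replicate 2, SALL4 was called lower in the first (-0.38, adjusted p = 0.0323). Without day 6 CTRL replicate 1, LIN28B was called lower at day 8 against day 6 (-0.25, adjusted p = 0.0424). POU5F1 fell from 2.53 to 0.473 CPM between days 6 and 8, a log2FC of -2.41 (adjusted p = 0.000749 in edgeR). LIN28A fell by 0.82 on the log2 scale between days 6 and 8 and by 1.06 between days 8 and 10 (adjusted p = 7.91e-06 and 3.89e-06 in edgeR). In 1 fit over all 33 libraries both LIN28A calls were lost (adjusted p = 0.247 and 0.271), as was that of ZFP42 at day 8 against day 6 (0.182). At day 10 against day 8 that fit called 1 of the 7 members, SALL4, with adjusted p from 0.0783 for ZFP42 to 0.572 for LIN28B in the others lost. The calls of 3 members at day 10 against day 8 were lost without single libraries. For DPPA4 the adjusted p was between 0.0524 and 0.0588 without day 8 replicate 1 or 3 or day 10 replicate 1 or 2, for L1TD1 it was 0.128 without day 8 replicate 3 and 0.111 without day 10 replicate 1, and for DNMT3B it was between 0.0592 and 0.069 without day 8 replicate 1 or day 10 replicate 2 or 3.

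In IND, 4 members were called lower at day 8 against day 6 (5.05% of all genes): POU5F1, LIN28B, DPPA4 and DNMT3B. The call of LIN28B was lost without any 1 library other than day 8 IND replicate 3, with adjusted p up to 0.199 without day 8 IND replicate 2. It was also lost without the filter (0.0605), with the replicate block (0.149), in 1 fit (0.483) and with DESeq2 (0.0506). The block also lost POU5F1 (0.0736) and DPPA4 (0.0501), while LIN28A was called lower without the filter (adjusted p = 1.3e-06) and with DESeq2 (adjusted p = 0.00414). No gene at all was called lower at day 10 against day 8 or at day 12 against day 10 (0% in both) in edgeR, where 253 and 316 genes had an unadjusted p under 0.05 and DESeq2 called 9 and 37. Without day 10 IND replicate 2, LIN28A was called lower at day 10 against day 8 (-1.02, adjusted p = 0.0358) beside 0.135% of all genes called lower and 0.957% higher. At day 14 against day 12 (1.50% of all genes), LIN28A fell by 1.69 and ZFP42 by 1.71 on the log2 scale (adjusted p = 0.0104 and 0.0162). Without day 14 IND replicate 1 these adjusted p were 0.083 and 0.0953, and without replicate 3 they were 0.127 and 0.154 in edgeR. Without day 12 IND replicate 1, SALL4 was called lower in that step too (-0.62, adjusted p = 0.0239), and without day 8 IND replicate 3, LIN28A was called lower at day 8 against day 6 (-0.34, adjusted p = 0.0415).

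Few of these genes were called between IND and CTRL. In the IND comparisons, IND against CTRL of the same day, 1 member was called lower at day 6 and none higher (2.37% of all genes lower, 1.29% higher). At day 8, 2 were called lower and 1 higher (6.67% and 7.49%). No member was called at day 10 (1.18% and 0.856%), 1 lower and none higher at day 12 (3.04% and 2.38%), and none at day 14 (5.22% and 3.21%). By an unadjusted p under 0.05, 2 members were lower and 2 higher at day 10, beside 1249 and 1716 of 19858 genes. At day 14, 1 member was lower by that measure, beside 2220 of 19055 genes. DESeq2 called 1 member, SALL4, higher at day 10 (0.69, adjusted p = 0.00269), beside 752 genes lower and 1035 higher. It called 1 member, LIN28A, lower at day 14 (-0.40, adjusted p = 0.0379), where its count over all genes is not reported here. Of the 10 members, 9 were tested at days 6 to 12 and 8 at day 14. Single libraries decided several of these calls. Without day 8 IND replicate 3, SOX2 (0.82, adjusted p = 0.000131), LIN28A (0.46, adjusted p = 0.00058) and ZFP42 (0.43, adjusted p = 0.0259) were called higher in IND as well. Over all genes, that setting took those called at day 8 from 1297 lower and 1455 higher to 2273 and 2459. Without day 6 IND replicate 3, ZFP42 was called lower (-0.60, adjusted p = 0.0417). At day 14, LIN28A was called lower without CTRL replicate 3 (-0.50, adjusted p = 0.015) or IND replicate 2 (-0.52, adjusted p = 0.0333), and SOX2 without CTRL replicate 3 (-0.45, adjusted p = 0.0497). Of all genes, 1217 were called lower at day 14 without CTRL replicate 3, and 994 with all libraries.

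Markers of other cell types also differed between IND and CTRL. At day 14, where 5.22% of all genes were called lower and 3.21% higher, 7 of 8 neuron markers were called lower in IND, with a median log2FC of -1.56, and their summed level was between 94.2 and 144 CPM in IND and between 310 and 510 CPM in CTRL. For neural crest and glia it was 5 of 7 lower (median -0.94), with 342 to 413 CPM in IND and 610 to 1020 CPM in CTRL. Coelomic epithelium gave 4 of 6 lower (median -0.55), with 603 to 681 CPM against 833 to 1110 CPM. Neural progenitors gave 2 of 11 lower (median -0.55), with 436 to 480 CPM against 524 to 831 CPM. By mean over the 33 libraries, KRT19 (705 CPM) was the most abundant gene of the former list and NES (400 CPM) of the latter. None of these 4 lists had a gene called higher at that day. At day 8, 6.67% of all genes were called lower and 7.49% higher. Neuron markers were then lower for 4 and higher for 1 of 8 (median -1.35). Neural crest and glia markers were lower for 4 of 7 (median -0.95) and coelomic epithelium markers lower for 4 of 6 (median -1.55). None of the 7 endoderm markers was called at day 8, at a median of 1.80, with a summed level between 265 and 586 CPM in IND and between 92.3 and 224 CPM in CTRL. The part of these cells in the IND values of the members was not tested.

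L1TD1 was called lower in IND at days 6 and 8. At day 6 the IND libraries had 6.70, 7.14 and 9.02 CPM and the CTRL libraries 11.8, 12.1 and 14.3 CPM, without overlap, a log2FC of -0.72 (SE 0.166, adjusted p = 0.0194 in edgeR). At day 8 it was -0.76 (SE 0.174, adjusted p = 0.0143 in edgeR), with 8.78, 6.81 and 5.76 CPM in IND and 11.1, 11.5 and 13.8 CPM in CTRL. The values at days 10, 12 and 14 were -0.59, -0.64 and -0.23 (adjusted p = 0.213, 0.0722 and 0.658 in edgeR). At days 10 and 12 the highest IND library (6.78 and 4.69 CPM) still lay below the lowest CTRL library (7.87 and 6.29 CPM). Both days passed in 1 fit over all 33 libraries (adjusted p = 0.0385 and 0.0444 in edgeR). Day 12 also passed with DESeq2 (adjusted p = 0.0208). The day 6 call was lost without CTRL replicate 1 (0.0515) or 3 (0.11) and without IND replicate 1 (0.051) or 2 (0.125). The day 8 call was lost without CTRL replicate 3 (0.0773) or IND replicate 2 (0.0592).

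DNMT3B was also lower in IND, at day 8 with a log2FC of -0.40 (SE 0.0842, adjusted p = 0.00974) and at day 12 with -0.82 (SE 0.158, adjusted p = 0.0211) in edgeR. At day 12 the IND libraries had 16.4, 23.4 and 21.6 CPM and the CTRL libraries 39.7, 34.9 and 33.4 CPM, without overlap. At day 14 the groups overlapped, with 24.1, 30.9 and 26.7 CPM in IND and 31.8, 30.2 and 30.5 CPM in CTRL, and the log2FC was -0.17 (adjusted p = 0.407). The day 8 call was lost in 1 fit over all 33 libraries (-0.41, adjusted p = 0.0937 in edgeR). The day 12 call was lost without CTRL replicate 1 (0.0956), 2 (0.0754) or 3 (0.0718). DNMT3B was not called at day 10 in the fit of the 2 groups. Its IND libraries there (30.3, 17.9 and 29.3 CPM) lay below those of CTRL (45.1, 38.8 and 37.7 CPM). In 1 fit over all 33 libraries it was called lower at day 10 (-0.64, adjusted p = 0.00309 in edgeR), beside 1288 genes lower. None of the 6 other DNA methylation enzymes tested was called in any of the 5 IND comparisons.

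SALL4 was the member called higher in IND. At day 8 the IND libraries had 179.6, 158 and 122 CPM and the CTRL libraries 98.6, 105 and 92.8 CPM, without overlap, a log2FC of 0.65 (SE 0.132, adjusted p = 0.0129 in edgeR). The call was lost without CTRL replicate 1 (0.0686) or 3 (0.0578) or IND replicate 2 (0.0568). At days 10, 12 and 14 the log2FCs were 0.71, 0.50 and 0.35 (adjusted p = 0.0717, 0.112 and 0.29 in edgeR). At day 10 the IND libraries (94.5 to 123 CPM) lay above those of CTRL (58.6 to 72.8 CPM). Day 10 passed with DESeq2 (adjusted p = 0.00269) and in 1 fit over all 33 libraries (0.00211 in edgeR). Day 12 passed in that fit (0.042) and without the filter (0.0467), and day 14 without the filter (0.0125) and with the replicate block (0.0265). Without day 12 IND replicate 1 the day 12 value passed (0.64, adjusted p = 0.00237). POU5F1 at day 6 had 98, 198 and 304 counts in IND and 87, 123 and 70 in CTRL, overlapping, and its log2FC of 0.93 did not pass the threshold (SE 0.341, adjusted p = 0.21 in edgeR). It did so without IND replicate 1 (1.21, adjusted p = 0.0163).

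**Figure D3:**
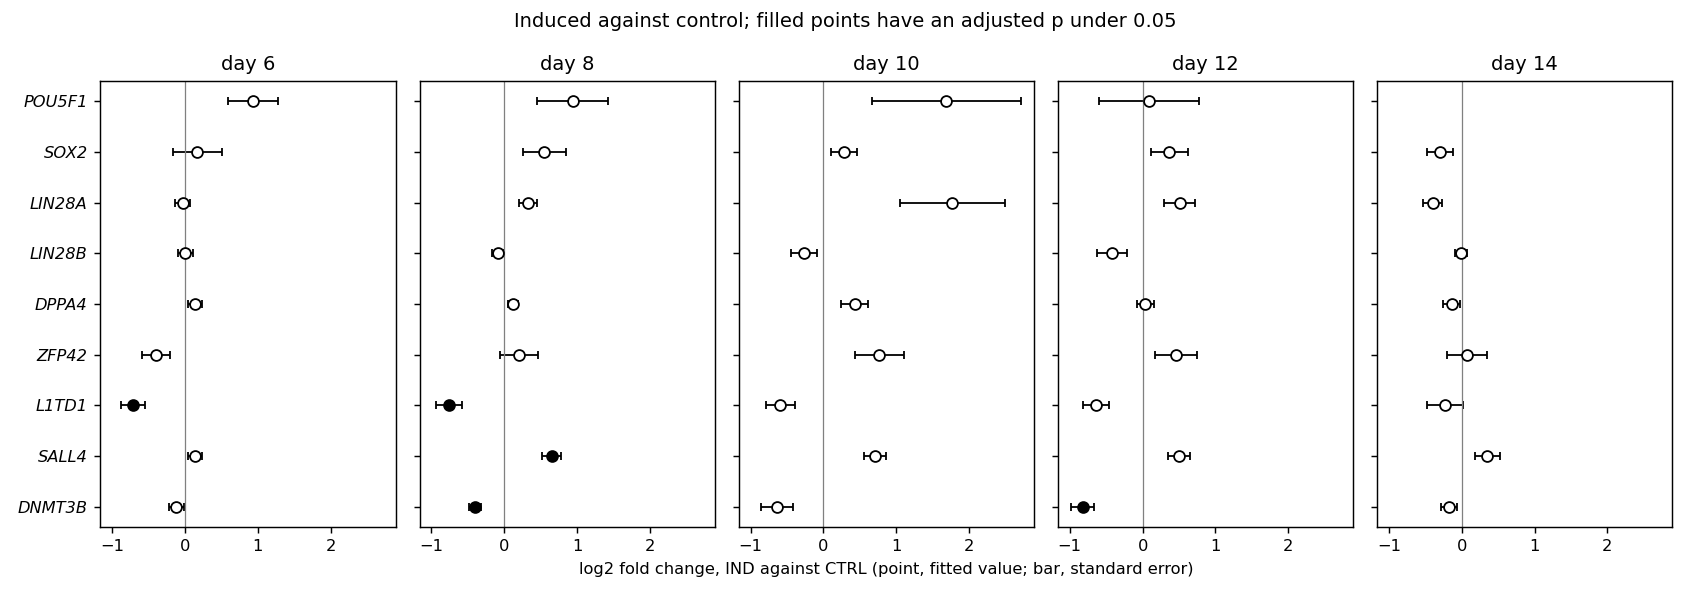
Fitted log2FC of IND against CTRL at each day for 9 members, with bars of 1 standard error. Filled points have an adjusted p under 0.05: L1TD1 at days 6 and 8, SALL4 and DNMT3B at day 8 and DNMT3B at day 12. POU5F1 is missing at day 14 because it was removed by the filter on low counts.

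Day 10 IND replicate 2 had a particular pattern of these genes. LIN28A had 1813 CPM in it and 278 and 343 CPM in replicates 1 and 3, so this library alone was at the level of day 4. DPPA4 (95.3 against 63.9 and 65.2 CPM) and ZFP42 (34.5 against 13.6 and 19.5 CPM) were also higher in it. LIN28B (65.5 against 101.6 and 100.8 CPM) and DNMT3B (17.9 against 30.3 and 29.3 CPM) were lower, and SOX2 (51.8 against 50.8 and 59.2 CPM) lay between the others. SALL4 was at 123 against 94.5 and 106 CPM, L1TD1 at 5.23 against 5.25 and 6.78 CPM and POU5F1 at 1.04 against 0.206 and 0.266 CPM. The summed level of the other hESC-restricted genes was 199 CPM in it and 207 and 227 CPM in replicates 1 and 3. That of coelomic epithelium markers was 1630 against 734 and 826 CPM and that of neural progenitor markers 866 against 470 and 458 CPM. By mean over the 33 libraries, KRT19 (705 CPM, next GATA4 with 247) led the former list and NES (400 CPM, next LHX2 with 24.2) the latter. Intermediate mesoderm markers had 54.8 against 32.0 and 32.8 CPM and endoderm markers 467 against 248 and 372 CPM. Lower sums were found for neural crest and glia markers, 221 against 347 and 369 CPM, and for the genes of the LIN28 and let-7 axis, 2320 against 2900 and 3050 CPM. The part of these cells in the level of LIN28A was not tested.

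With this library, LIN28A at day 10 IND against day 4 had a log2FC of -1.20 (SE 0.670, adjusted p = 0.246) and DPPA4 of -0.73 (SE 0.23, adjusted p = 0.0591) in edgeR. Without it they were -2.59 (adjusted p = 5.3e-05) and -0.95 (adjusted p = 0.00611), and 8 members were called lower, beside 17.0% of all genes lower and 18.3% higher. In 1 fit over all 33 libraries, which keeps the library, both were called (-1.20, adjusted p = 0.016, and -0.73, adjusted p = 6.51e-05). DPPA4 also passed without day 4 replicate 3 (-0.93, adjusted p = 0.0496). Against CTRL of day 10, LIN28A was at 1.77 with the library (SE 0.722, adjusted p = 0.326) and at 0.37 without it (SE 0.121, adjusted p = 0.0755) in edgeR. In 1 fit over all 33 libraries, the library included, LIN28A was called higher in IND (1.76, adjusted p = 0.00438). Without the library, L1TD1 (-0.54, adjusted p = 0.0288) and DNMT3B (-0.45, adjusted p = 0.00361) were called lower and SALL4 (0.59, adjusted p = 0.000576) higher in IND. Of all genes, 9.51% were then called lower and 8.74% higher.

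**Figure D4:**
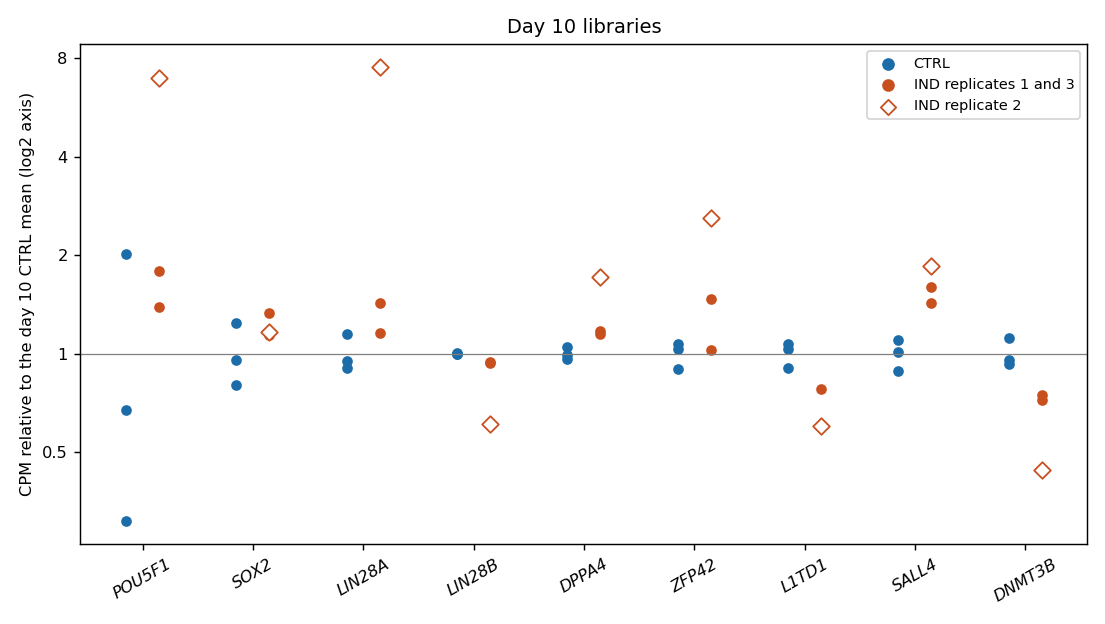
CPM of the 6 day 10 libraries relative to the mean of the 3 CTRL libraries, on a log2 axis, for 9 members. Blue points are CTRL, orange points IND replicates 1 and 3 and open diamonds IND replicate 2. The diamond of LIN28A, at 1813 CPM, lies far above the other 2 IND libraries, at 278 and 343 CPM, while those of LIN28B and DNMT3B lie below.

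The interaction of day and induction, tested over the 30 libraries after day 4, asks whether the IND effect on a gene differed between days. It was called for 2.38% of 22442 genes and for none of the 10 members in edgeR. The lowest adjusted p of the members were 0.193 for DNMT3B and 0.204 for LIN28A. Without day 10 IND replicate 2, DNMT3B was called (adjusted p = 0.0292) and LIN28A was not (adjusted p = 0.110), among 1016 genes called of 23216. The effects on L1TD1 or SALL4 were not shown to differ between days.

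Of 30 other hESC-restricted genes, 29 were in the table and 22 were tested at day 6 in CTRL. Of these, 13 were called lower and 2 higher, with a median log2FC of -1.12 against 0 over all genes, of which 10.6% were called lower and 11.0% higher. At day 14 in CTRL, 15 were lower and 3 higher, with a median of -1.90 against -0.002. The counts of the lists that follow at day 14 in CTRL are to be read beside 22.9% of all genes called lower and 24.6% higher there, and -0.002 is the median to set beside theirs. TRIM71, a let-7 target and RNA-binding ubiquitin ligase, went from 246 ± 38.5 CPM at day 4 to 49.6 ± 12.4 CPM (SD, n = 3). TERF1, a telomere protein, fell by 0.49 on the log2 scale (adjusted p = 0.00386 in edgeR). FOXD3, which is also a neural crest factor and stands in that list too, rose from 2.34 ± 1.08 to 15.8 ± 5.58 CPM (SD, n = 3).

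Naive pluripotency genes are a further list, of 13. Of 7 tested at day 14 in CTRL, none was called lower and 4 were higher, with a median log2FC of 0.36. Another 5 were at the floor in that group, among them DPPA5 and KLF17. TBX3 and KLF5, which are also expressed in many differentiating tissues, were at 0.36 and 0.89 on the log2 scale (adjusted p = 0.0306 and 0.0312 in edgeR). In the let-7 axis, 7 of 14 genes were lower and 1 higher at day 14 in CTRL (median -0.46). HMGA1 fell by 1.25 and IGF2BP1 by 1.10 on the log2 scale (adjusted p = 0.000322 and 3.08e-05), whereas HMGA2, a classical let-7 target, was at -0.26 (adjusted p = 0.163) and IGF2BP2 at -0.17 (adjusted p = 0.347) in edgeR. Of 12 tested relatives of SALL4, SOX2 and POU5F1, 3 were lower and 6 higher at day 14 in CTRL (median 1.04). SALL1 was at -2.96 (adjusted p = 1.45e-05), SALL2 at -0.12 (adjusted p = 0.485) and POU2F1 at -0.81 (adjusted p = 0.000384) in edgeR.

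Of 17 chromatin and signalling partners, 8 were called lower and 2 higher at day 14 in CTRL, with a median log2FC of -0.33. Of 10 epithelial and surface genes of stem cells, 5 were lower and 2 higher (median -0.53). Germ cells also express several of the members. Of 8 primordial germ cell markers tested, 4 were lower and 2 higher (median -0.43). All 13 on the list had a summed level between 115 and 177 CPM at day 4 and between 185 and 202 CPM in CTRL of day 14, led by PDPN, KIT, SOX17 and CXCR4, which other cells express too. The germ cell genes DDX4, DAZL, NANOS2 and TCL1A were at the floor in CTRL of day 14. Of the primitive streak markers, 5 of 6 tested genes were called lower at day 6 in CTRL, beside 10.6% of all genes. Their summed level went from between 19.1 and 26.0 CPM to between 4.37 and 6.32 CPM. Coelomic epithelium markers were called higher for 4 of 6 tested genes and lower for 1 at day 14 in CTRL (median 5.14), intermediate mesoderm markers higher for 1 and lower for 1 of 5 (median -0.14), and endoderm markers higher for 3 and lower for 2 of 7 (median -0.21).

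Across the 11 group means of log2 CPM, LIN28A and ZFP42 followed each other most closely among the members (Pearson's r = 0.986), and LIN28B followed DNMT3B (0.972). SOX2 had negative values with each of the other members, between -0.342 and -0.688. These are descriptions over 11 groups of 1 clone in 1 time course. Among 13347 genes with at least 5 CPM in some group, the gene most like SALL4 was HAPLN1, a matrix link protein (0.993), the gene most like DNMT3B was the exonuclease ERI1 (0.996), and the gene most like SOX2 was NUCB1 (0.934). The gene most like POU5F1 was CCDC47 (0.981), followed by MAPKAPK3 and WNT8A (both 0.980). RAB5IF (0.981) was most like LIN28A, C18orf54 (0.987) most like LIN28B, CHST6 (0.988) most like DPPA4, ARID3A (0.974) most like ZFP42 and LYN (0.974) most like L1TD1.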

How the data were processed

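Bulk RNA-seq of 33 libraries was analysed. Per the labels and the study's methods, polyadenylated RNA was sequenced in pairs from non-directional libraries. According to the submitters' processing notes, reads were trimmed with fastp 0.23.2, mapped with HISAT2 2.0.5 to GRCh38 and counted with featureCounts 1.5.0-p3. The authors deposited raw counts per gene, without normalization. Their FPKM were not used here. From the counts, genes were kept with filterByExpr, scaled with TMM and tested with edgeR 4.0.16 (quasi-likelihood, robust, R 4.3.3) for each pair of groups, 6 libraries each, over all genes tested, with Benjamini-Hochberg adjustment at 0.05. CPM in the text use TMM over all 33 libraries.

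The members and gene lists were chosen with earlier results of these data known. All members are named, with up to 4 genes of highest mean CPM from each list, the germ cell genes, DPPA5 and KLF17 being named only as genes at the floor and TET2 and TET3 after their values were seen. Some genes that the rule would name are not reported here. Genes with a like pattern were ranked by Pearson's r over the 11 group means of log2 CPM (prior count 2).

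In simulated data for day 6 CTRL against day 4 over 18310 genes, edgeR recovered 134 of 200 changed genes, with 10 false calls. As alternatives, the counts were fitted with DESeq2 1.42.0, without the filter, in 1 model of all 33 libraries, with replicate number as a block, and without each library in turn; levels were also scaled by RLE and by library total. Leaving day 10 IND replicate 2 out of the interaction was added after seeing the data.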

Additional observations from a re-analysis of the deposited data

How the results depend on the processing

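Of the settings tried for single members, 2095 kept the side of the threshold, 64 lost a call and 73 gained one. No called effect reversed its direction. The direction of effects that were not called was not followed, so some of the 2095 and the 73 may have changed it. Replicate numbers did not pair the libraries (correlations of same-numbered deviations between -0.248 and 0.141, and in 0 comparisons all over 0.1). With the replicate block, SOX2 at day 12 CTRL against day 4 was lost (0 members higher), 1 member was lower at day 14 IND against CTRL and 1 higher, 1 was lower at day 12 against day 10 in CTRL, and 1 instead of 4 was lower at day 8 against day 6 in IND. The block also took genes lower at day 10 IND against day 4 from 1810 to 627 and higher from 2191 to 939, and those at day 10 IND against CTRL from 234 to 9 and from 170 to 6. The cause was not tested.

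Other counts of members called moved as follows. Without the filter on low counts, 1 was higher at day 14 CTRL and 1 at day 12 IND against day 4, 2 lower and 1 higher at day 6 IND against CTRL, 2 higher at day 8, 1 higher at day 12, 1 lower and 1 higher at day 14, and between steps 1 was lower at day 12 and 3 at day 14 in CTRL and 4 at day 14 in IND. With DESeq2, 1 was higher at day 12 IND against day 4, and against CTRL 2 were higher at day 8, 1 higher at day 10, 2 lower at day 12 and 1 lower at day 14, with 1 and 2 lower in the day 12 and day 14 steps of CTRL. In 1 fit over all 33 libraries, 0 were higher at day 12 CTRL against day 4, 1 was lower at day 8 IND against CTRL, 2 were lower and 3 higher at day 10, 2 lower and 1 higher at day 12, and 1 was lower in each of the day 10 step of CTRL and the day 10 and day 12 steps of IND. The interaction called 1 member without day 10 IND replicate 2.

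Leaving out 1 library at a time gave these ranges of members called: against day 4, 0 to 1 higher at days 12 and 14 in CTRL and at days 8 and 12 in IND. Members called lower against day 4 moved too. At day 6 CTRL, LIN28B and L1TD1 were lost without CTRL replicate 1, and DPPA4 was gained without day 4 replicate 3. At day 10 IND, LIN28A and DPPA4 were gained without IND replicate 2. IND against CTRL gave 0 to 2 lower and 0 to 1 higher at day 6, 1 to 2 lower and 0 to 4 higher at day 8, 0 to 2 lower and 0 to 1 higher at day 10, 0 to 1 lower and higher at day 12 and 0 to 2 lower at day 14. The steps gave 0 to 1 lower at day 12 and 0 to 2 at day 14 in CTRL, and 0 to 1 at day 10 and 0 to 3 at day 14 in IND. The day 8 and day 10 steps of CTRL and the day 8 step of IND moved as given above for single members.

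With CPM on library totals, the day 4 means were 63.7 for POU5F1, 41.1 for SOX2, 1650 for LIN28A, 177 for LIN28B, 70.7 for ZFP42, 17.3 for L1TD1, 228 for SALL4 and 124 for DNMT3B. SOX2 was at 56.9 at day 12 CTRL (56.8 with RLE), SALL4 at 156 at day 6 CTRL, and LIN28B at 151 and 130 at days 6 and 8 IND and at 109 at day 10 CTRL (108 with RLE).

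Over all genes, the count lower and higher in IND against CTRL was 454 and 246 at day 6 (714 and 495 without the filter), 1297 and 1455 at day 8 (775 and 824 in 1 fit), 234 and 170 at day 10 (1288 and 2037 in 1 fit, 752 and 1035 with DESeq2), 605 and 475 at day 12 (1064 and 892 with DESeq2) and 994 and 612 at day 14 (549 and 312 in 1 fit). In 1 fit, day 10 IND against day 4 had 4504 lower and 5719 higher. Genes lower in the steps of CTRL numbered 1515 at day 8 (577 in 1 fit), 662 at day 10 (60 in 1 fit), 96 at day 12 (372 without the filter, 312 with DESeq2, 0 in 1 fit) and 2 at day 14 (242, 60 and 0, and 0 with the block). In IND they numbered 981 at day 8 (75 with the block, 342 in 1 fit), 0 at day 10 (86 in 1 fit, 9 with DESeq2), 0 at day 12 (2 without the filter, 142 in 1 fit, 37 with DESeq2) and 295 at day 14 (1023 without the filter, 594 with the block, 512 in 1 fit, 714 with DESeq2, and 0 without day 14 IND replicate 1 or 3).

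Leaving out 1 library at a time moved these counts too. IND against CTRL gave 244 to 503 lower and 104 to 423 higher at day 6, 725 to 2273 and 569 to 2459 at day 8, 6 to 1964 and 5 to 1804 at day 10, 259 to 1126 and 158 to 853 at day 12, and 566 to 1217 and 339 to 770 at day 14. At day 10 the highest were without IND replicate 2, the lowest lower count without CTRL replicate 1 and the lowest higher count without CTRL replicate 2. At day 12 the highest were without IND replicate 1 and the lowest without CTRL replicate 3. Against day 4, the widest ranges were 1094 to 2792 lower and 1218 to 2881 higher at day 6 CTRL (without day 4 replicate 1 and 3), 1347 to 3372 and 1279 to 3288 at day 6 IND (without IND replicate 2 and day 4 replicate 3), and 756 to 3321 and 898 to 3574 at day 10 IND (without day 4 replicate 1 and IND replicate 2). The steps gave 637 to 1810, 374 to 726, 23 to 236 and 0 to 111 lower in CTRL and 180 to 1580, 0 to 28, 0 and 0 to 573 in IND.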
